A study of Bos taurus with 48 samples.

Results

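The genes described are those that let calcium out of the sarcoplasmic reticulum of a muscle fibre, hold it there and pump it back: ATP2A1, ATP2A2, CASQ1, CASQ2, RYR1, PVALB, SLN, PLN and CACNA1S. They were chosen by name, as probes whose gene name or whose symbol in the probe description equalled one of the 9 symbols. This found 8 of the 9 genes, on 9 probes, among 19810 genes and 21475 probes of the array. PVALB was found only through its RefSeq gene number, outside that rule, and is reported with the others as the 9th gene. Each gene has 1 probe except ATP2A2, which has 2.

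Total RNA of longissimus muscle of cattle was measured on 48 arrays of 2 colours, which give 96 channels, 35 animals and 26 conditions. In the developmental experiment, Piedmontese × Hereford was hybridised against Wagyu × Hereford (the labels name only Piedmontese and Wagyu). Fetuses were sampled 60, 135 and 195 days into gestation and calves when born, on 3 arrays per stage. Older animals were sampled when 3, 7, 12, 20, 25 and 30 months old, on 4 arrays per stage. In the diet experiment, adult Belmont Red cattle on a weight loss diet (restricted) were hybridised against Belmont Red cattle on a weight growth diet at times 0, 1 and 2, with 4 arrays each. The study describes this as feed deprivation followed by refeeding, and the ages of these animals and the spacing of the times are not given in the sources used here. The 60-day values come from 1 animal of each cross, measured on 3 arrays each. The post-natal values come from 5 Piedmontese cross and 4 Wagyu cross animals, sampled repeatedly except for GP273. That Piedmontese cross animal was measured only at 7 months, and counts as much as the others in tests on 1 value per animal. It holds the highest of these post-natal values for RYR1 and CACNA1S and the lowest for CASQ1 and PLN. Codes GP041A and GP041B, the 2 Piedmontese cross fetuses at 195 days, were counted as 2 animals. Whether they are 1 animal is not given in the sources used here. Counting them as 1 changed the call in 1 of 135 tests of the 9 genes. The samples are whole biopsies, so that fewer cells of a type and less RNA per cell cannot be told apart. Fetal and birth arrays share 3 slides, and all later arrays lie on other slides. Slide and age therefore cannot be told apart between birth and 3 months, or between fetal and post-natal animals. Each diet time likewise lies on its own slide.

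In a resting fibre, calcium is kept in the sarcoplasmic reticulum by calcium pumps and is bound there by calsequestrin. A nerve impulse moves the voltage sensor of the surface membrane, whose pore subunit is CACNA1S, and this opens the release channel RYR1. ATP2A1 (SERCA1) is the pump of fast fibres and ATP2A2 (SERCA2) that of slow fibres and heart. Phospholamban (PLN) and sarcolipin (SLN) are small membrane proteins that restrain the pumps. CASQ1 is the skeletal and CASQ2 the cardiac and slow fibre calsequestrin. Parvalbumin (PVALB) is a calcium buffer of the cytosol of fast fibres in small mammals. By this usual description ATP2A1, CASQ1 and PVALB are fast isoforms or fast fibre genes, and ATP2A2, CASQ2 and PLN are slow or cardiac ones.

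A level below is a log2 intensity after background correction and normalisation, averaged to 1 value per animal and time. Levels of different probes are not comparable, so only changes and differences are read. A gene is called changed when its Benjamini-Hochberg adjusted p from limma, over 14711 genes, was below 0.05. The p-values measure the spread between these animals. For the age steps this spread was estimated over all ages together, with 1 animal of each cross at 60 days. The test of fetal against post-natal animals pooled the fetal ages, so its spread also holds the differences between those ages. All 9 genes passed the filter on dim probes. ATP2A1, ATP2A2, CASQ2, RYR1, PVALB and SLN were well above background in all 96 channels, CACNA1S in 93, PLN in 90 and CASQ1 in 85. PLN was well above background in only 1 of the 6 channels at 60 days, CASQ1 in 3 and CACNA1S in 4, so their earliest levels lie close to what the array could detect. CASQ1 also fell short later, being well above background in 5 of 6 birth, 22 of 24 diet and 44 of 48 post-natal channels. No channel was saturated for any of the genes.

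The ATP2A2 probes are the only ones that read 1 gene in 2 ways, and they disagree, so the sequence of the probe that followed birth is given. It is a 60-base oligonucleotide with a GC content of 45%, against 35% for the other ATP2A2 probe.
ATP2A2, probe A_73_107013: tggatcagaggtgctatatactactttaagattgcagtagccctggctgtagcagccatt

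One animal stood apart. GP672, a Piedmontese cross fetus at 135 days, correlated with the other 4 animals of that age at 0.924 to 0.930 across genes, whereas those correlated with one another at 0.989 to 0.996. The summed level of the 6 skeletal muscle markers (CKM, ACTA1, DES, MYOT, TTN and NEB) was 12.54 in it and 17.31 to 18.07 in the others. The 6 fast fibre markers were at 14.02 against 18.87 to 19.32, and the 7 slow fibre markers at 13.72 against 17.94 to 18.80. The 4 adipocyte markers were at 17.10 against 10.30 to 12.25, among them FABP4 at 16.56 against 9.02 to 11.63. The smooth muscle and vessel wall sum was also higher, at 17.02 against 16.08 to 16.26, as was the blood and immune sum, at 18.75 against 16.69 to 17.79. The fibroblast, endothelium and heart sums lay slightly above the others. The nerve and Schwann cell sum was lower, at 12.73 against 13.82 to 13.97, as was the embryonic or fetal muscle sum, at 13.21 against 18.34 to 18.66. In this animal ATP2A1 was at 12.62 against 15.57 to 16.12 in the others, RYR1 at 8.45 against 11.83 to 12.55, CASQ2 at 7.59 against 10.76 to 11.92 and SLN at 11.86 against 16.01 to 16.58. PVALB went the other way, at 10.72 against 8.13 to 8.49. Values without GP672 are therefore given beside the main results that rest on 135 days or on all fetuses. In the other animals the labelled tissue was borne out: over the 11 other fetal animals the skeletal muscle sum lay between 16.43 and 18.22.

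**Figure D1:**
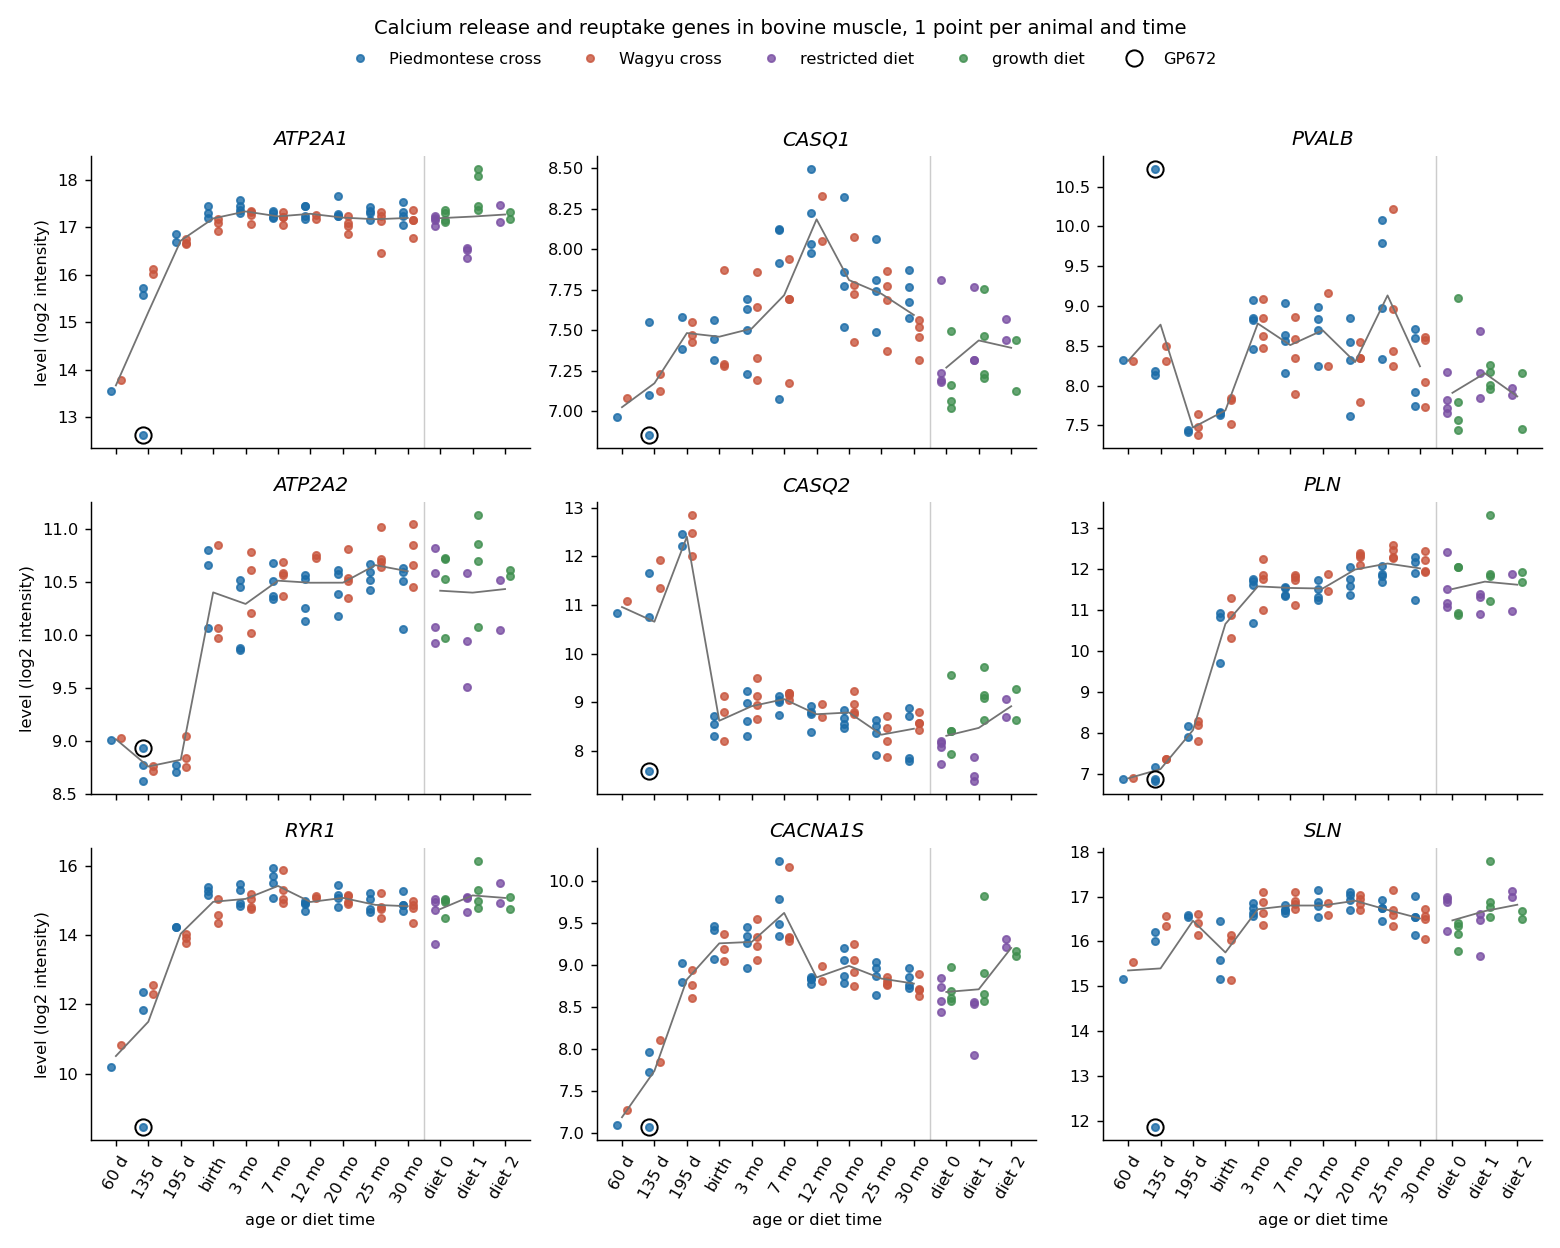
Level (log2 intensity) of each gene in every animal by age and by diet time, with 1 point per animal and time, the mean drawn as a line and GP672 ringed. ATP2A2 (mean of both probes) and PLN lie higher in all post-natal than in all fetal samples. CASQ2 falls between 195 days and birth, and the mean at 135 days includes GP672.

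The voltage sensor and the release channel rose through gestation. RYR1 was at 10.20 and 10.81 in the 2 animals at 60 days, at 11.83 to 12.55 in the 4 animals other than GP672 at 135 days, at 13.77 to 14.24 at 195 days and at 14.33 to 15.38 at birth. No animal of a later age overlapped an earlier one across these steps, apart from GP672. From 135 to 195 days RYR1 rose by 2.42 ± 0.32 (log2, SE; adjusted p from limma 1.23e-07), and without GP672 by 1.79 (adjusted p 3.62e-11). From 195 days to birth it rose by a further 0.89 ± 0.31 (adjusted p 0.0102), which did not pass with slide as a fixed block (0.87, adjusted p 0.159). From 60 to 135 days the difference was 1.15 (adjusted p 0.0561) with GP672 and 1.76 (adjusted p 2.47e-08) without it. After birth RYR1 stayed between 14.34 and 15.93 in all samples of the developmental experiment, and none of the steps tested after birth (birth to 3 months, 3 to 20 and 25 to 30 months) was called.

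CACNA1S moved like RYR1 and by less. It was at 7.09 and 7.27 at 60 days, between 7.72 and 8.10 at 135 days without GP672, between 8.60 and 9.02 at 195 days and between 9.04 and 9.46 at birth, again with no overlap between these ages. The rises were 0.59 ± 0.20 (adjusted p 0.0345), 1.06 ± 0.15 (adjusted p 6.44e-07) and 0.42 ± 0.15 (adjusted p 0.0109). Without GP672 the first was 0.72 and the second 0.93, both called. The first did not pass when GP012, GP663, GP921, GW780 or GW911 was left out (0.50 to 0.68, adjusted p 0.0582 to 0.353), and the third did not pass without GP041A (0.36, adjusted p 0.0631). At 7 months the 8 animals ranged from 9.28 to 10.23, with the 2 highest at 10.16 and 10.23, and at 12 months the 6 animals ranged from 8.77 to 8.98. CACNA1S was 0.29 ± 0.10 lower at 20 than at 3 months (adjusted p 0.0286), a call that leaving out GP112, GP130, GP285 or GW212 ended (adjusted p 0.0528 to 0.0992).

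Of the pumps, ATP2A1 rose mainly before 195 days. The fast fibre pump was at 13.56 and 13.78 at 60 days, at 15.57 to 16.12 at 135 days without GP672, at 16.64 to 16.85 at 195 days and at 16.92 to 17.46 at birth. It rose by 1.69 ± 0.34 from 60 to 135 days (adjusted p 0.000236) and by 1.37 ± 0.26 from 135 to 195 days (adjusted p 9.00e-05). Without GP672 the first rise was 2.20, or 4.60-fold, and the second 0.85, or 1.80-fold, so that the larger share of the rise then fell in the first interval. With slide as a fixed block the first rise was 1.68 (adjusted p 0.0515). From 195 days to birth the difference was 0.46 (adjusted p 0.101), within the 3 slides it was 0.53, 0.44 and 0.44, and it was called without GP672 (0.47, adjusted p 0.000585) and with median centring (1.13, adjusted p 0.0400). The 46 post-natal values lay between 16.46 and 17.66, and none of the later steps tested was called.

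ATP2A2, the slow fibre pump, depended on the probe. Read by the printed probe, it was at 7.83 to 7.97 at 60 days, at 8.65 or less at 195 days and at 10.07 to 11.40 at birth. This probe rose by 2.39 ± 0.25 from 195 days to birth (adjusted p 9.89e-12) and stood 3.60 ± 0.15 higher in post-natal than in fetal animals. Its 12 fetal values lay between 7.42 and 8.65 and its 46 post-natal values between 10.43 and 12.53, with no overlap. The other probe, A_73_106338, was at 10.08 and 10.18 at 60 days, at 9.09 to 9.51 at 195 days, at 9.72 to 10.60 at birth and at 9.04 to 10.14 at 3 months. It rose by 0.80 ± 0.19 from 195 days to birth and fell by 0.63 ± 0.17 from birth to 3 months, and post-natal animals differed from fetal ones by -0.19 ± 0.15 (adjusted p 0.261). The mean of both probes, used wherever ATP2A2 is given without a probe, rose by 1.60 ± 0.15 from 195 days to birth. Whether either probe also binds the related ATP2A1 transcript was not tested. Between 60 and 195 days, when ATP2A1 rose in the steps given above, the printed probe moved by -0.07 and 0.47, neither called.

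The proteins that restrain the pumps followed different courses. PLN was at 6.88 and 6.89 at 60 days, at 6.82 to 7.36 at 135 days, at 7.79 to 8.29 at 195 days, at 9.71 to 11.29 at birth and at 10.69 to 12.25 at 3 months. It rose by 0.90 ± 0.22 from 135 to 195 days (adjusted p 0.00215), by 2.60 ± 0.21 or 6.06-fold to birth (adjusted p 6.23e-15) and by 0.91 ± 0.19 to 3 months (adjusted p 7.99e-05). GP672 was at 6.86 and so within the range of its age, and without it the first of these rises was 0.88. PLN was 0.41 ± 0.15 higher at 20 than at 3 months (adjusted p 0.0315), which leaving out GP201, GP285, GW179 or GW245 ended (adjusted p 0.0708 to 0.209).

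SLN was already at 15.17 and 15.54 at 60 days and at 16.15 to 16.60 at 195 days. It stood at 15.13 to 16.45 at birth and at 16.36 to 17.09 at 3 months, so that the animals at birth overlapped those at 60 days. From 195 days to birth the difference was -0.72 (adjusted p 0.0653), and it was called without GP672 (-0.71, adjusted p 0.000173). The rise of 0.96 ± 0.31 from birth to 3 months was called (adjusted p 0.00866), but not with median centring (0.52, adjusted p 0.521). From 60 to 135 days the difference was 0.22 (adjusted p 0.874) with GP672 and 0.95 (adjusted p 0.00193) without it.

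The calcium buffers of the reticulum diverged at birth. CASQ2, the cardiac and slow calsequestrin, was at 10.84 and 11.07 at 60 days, at 10.76 to 11.92 at 135 days without GP672 and at 12.00 to 12.84 at 195 days, its highest level. At birth it was at 8.21 to 9.14, and the 46 post-natal values lay between 7.79 and 9.49. From 195 days to birth it fell by 3.77 ± 0.33 on the log2 scale, or 13.6-fold (adjusted p 6.93e-14), and within each of the 3 slides that hold both ages the difference was -3.62, -4.27 and -3.36. The rise before it, from 135 to 195 days, was 1.57 ± 0.35 (adjusted p 0.000663), or 0.95 without GP672 (adjusted p 0.00186).

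CASQ1 moved little. It was at 6.97 and 7.08 at 60 days, at 7.38 to 7.58 at 195 days, at 7.28 to 7.87 at birth and at 7.98 to 8.50 at 12 months, its highest age, before lying at 7.32 to 7.87 at 30 months. The ranges of most neighbouring ages overlapped. The difference of 0.30 ± 0.12 between 3 and 20 months had an adjusted p of 0.0488, and 8 of the settings tried in place of those used here took it to 0.0506 or above, as did leaving out GP112, GP130, GP201, GW169, GW179 or GW212 (adjusted p 0.0533 to 0.167).

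PVALB was at 8.30 and 8.32 at 60 days, at 8.13 to 8.49 at 135 days without GP672, at 7.38 to 7.65 at 195 days and at 7.51 to 7.84 at birth. It fell by 1.24 ± 0.34 from 135 to 195 days (adjusted p 0.00480), or by 0.80 without GP672 (adjusted p 0.0379). It rose by 1.09 ± 0.28 from birth to 3 months (adjusted p 0.00126), when all 8 animals, at 8.46 to 9.09, lay above all 6 newborns. At 25 months the 8 animals ran from 8.24 to 10.22, with GP112, GP130 and GW169 at 9.80, 10.08 and 10.22, and at 30 months from 7.73 to 8.71. The difference between these ages was -0.89 ± 0.22 (adjusted p 0.00251), and -0.53 (adjusted p 0.0911) with median centring.

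Counted over the genes, 2 of 9 were called higher and 0 lower from 60 to 135 days, where 7.57% of all genes were called higher and 8.01% lower. From 135 to 195 days 5 were higher and 1 lower, against 11% and 12.3% of all genes. From 195 days to birth 4 were higher and 1 lower, against 35.1% and 30.7%. From birth to 3 months 3 were higher and 0 lower, against 23.3% and 24.9%. From 3 to 20 months 2 were higher and 1 lower, against 13.9% and 13%, and from 25 to 30 months 0 were higher and 1 lower, against 11.6% and 9.31%. Without GP672 the first interval had 4 genes higher (ATP2A1, RYR1, SLN and CACNA1S), where 9.59% of all genes were then called higher and 9.39% lower (19% in all), and the second had the same 6 called genes, where 22.5% were called. From 195 days to birth ATP2A1 and SLN then joined the called genes, where 67.1% of all genes were called. With median centring of the arrays the calls of ATP2A1 (adjusted p 0.248) and CACNA1S (0.110) from 60 to 135 days, PLN from 135 to 195 days (0.367), CACNA1S from 195 days to birth (0.270), PLN from birth to 3 months (0.192) and PLN (0.564), CACNA1S (0.903) and CASQ1 (0.714) from 3 to 20 months were lost as well.

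Between the 12 fetal and the 9 post-natal animals, 6 genes were higher after birth and 1 lower, against 38.8% and 36% of all genes. In the fetal animals PLN had a median of 7.36 and a range of 6.82 to 8.29, and in the post-natal animals a median of 11.74 and a range of 11.33 to 12.15. Its difference of 4.30 ± 0.20, or 19.7-fold, was the largest of the 9. RYR1 differed by 2.73 ± 0.59, ATP2A2 by 1.70 ± 0.07, ATP2A1 by 1.65 ± 0.46, CACNA1S by 1.08 ± 0.26, CASQ1 by 0.39 ± 0.11 and CASQ2 by -2.68 ± 0.44. Without GP672 the differences were 4.24 for PLN, 2.38 for RYR1, 1.71 for ATP2A2, 1.39 for ATP2A1, 0.98 for CACNA1S, 0.36 for CASQ1 and -3.03 for CASQ2, all called. All post-natal animals lay above all fetal ones for ATP2A1, ATP2A2 (mean of both probes), RYR1 and PLN, a separation seen upward in 21.4% and downward in 19.7% of all genes. With probe A_73_106338 alone ATP2A2 overlapped, at 9.09 to 10.44 in fetal and 8.83 to 10.14 in post-natal samples. Its difference by that probe was -0.19 and not called. ATP2A1 separated by a narrow margin, from 16.85 to 17.02. SLN (0.90, adjusted p 0.0601) and PVALB (0.44, adjusted p 0.188) were not called with GP672, and were called without it at 0.55 and 0.67, so that all 9 genes were then called, as were 75.9% of all genes. Other tissue markers moved over the same interval: without GP672 the fibroblast sum was 16.96 to 17.96 in fetal and 13.65 to 16.27 in post-natal samples, with 5 of 5 markers called lower in the fit of all animals, and the blood and immune sum was 16.69 to 17.85 and 11.30 to 15.47. In the same fit of all animals, of the 7 blood and immune markers the globins HBA (-5.84), HBB (-3.13) and HBG (-6.53) were lower after birth and CD3E (1.05), CD74 (2.77) and PTPRC (0.97) higher. The skeletal muscle sum was 16.43 to 18.22 and 18.30 to 19.01, and the part of these shifts in the results was not tested.

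**Figure D2:**
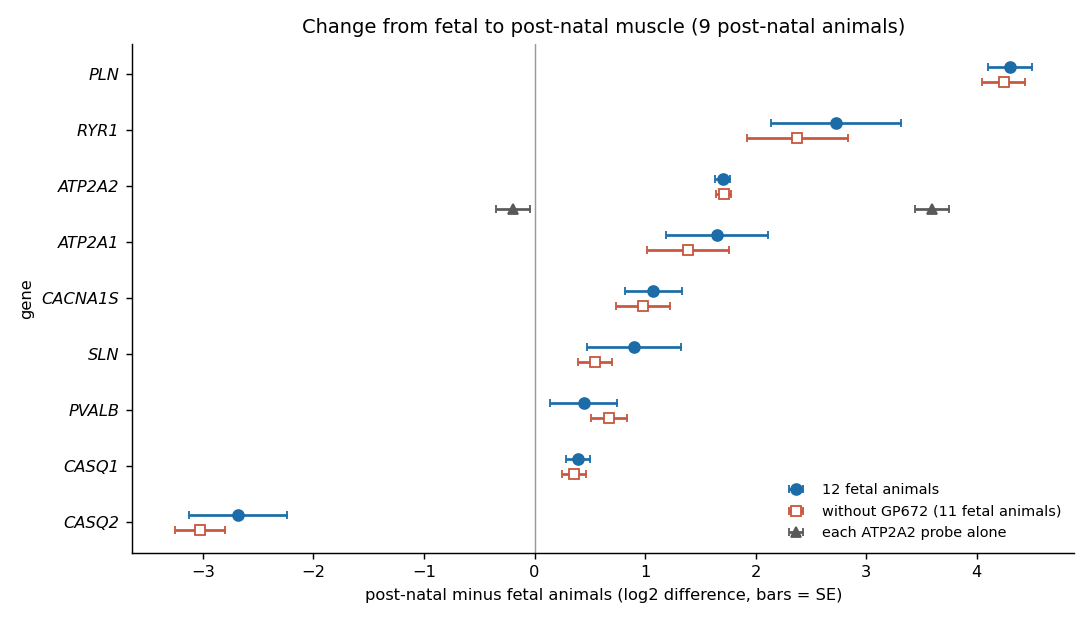
Difference between post-natal and fetal animals (log2, bars are SE) for each gene, with all 12 fetal animals, without GP672, and for each ATP2A2 probe alone. PLN at 4.30 and CASQ2 at -2.68 mark the ends, and the ATP2A2 probes stand at 3.60 and -0.19.

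Fast and slow isoforms were compared as differences of log2 levels within an animal, each set to 0 at the mean of 60 days. SLN and PLN, which restrain the pumps, were compared likewise. They are different genes and not isoforms, and SLN is assigned to no fibre type here. These ratios are a description and carry no p. The calsequestrin ratio, CASQ1 minus CASQ2, stood at -0.99 at 195 days, with a range of -1.44 to -0.51 in 5 animals, and at 2.77 at birth, with a range of 2.41 to 3.19 in 6 animals. At the post-natal ages its mean was between 2.52 and 3.36. So the ratio turned between 195 days and birth, where CASQ2 fell and CASQ1 differed by -0.02. CASQ1 was well above background in 14 of 18 fetal and 5 of 6 birth channels, so the ratio could miss a change of CASQ1. GP672 had a ratio of 3.19, just above the range of the newborns. The summed level of the embryonic or fetal muscle markers moved over the same interval, from 17.85 to 18.66 in the 11 fetal animals without GP672 to 10.37 to 11.77 at birth, and its part in the result was not tested.

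The pump ratio, ATP2A1 minus ATP2A2, depended on the probe after 195 days. With the printed probe it was 2.65 at 195 days, 0.72 at birth and between -0.42 and 0.48 at the later ages, around its value at 60 days. With the other probe it was 3.83 at 195 days, 3.53 at birth and between 3.92 and 4.32 later, so that it stayed high. Up to 195 days both probes gave a rise, to 2.19 and 2.80 at 135 days without GP672. Both probes thus gave a rise to 195 days and a lower mean at birth, of different size, and the means of the later ages lay below that of birth with the printed probe and above it with the other. SLN minus PLN moved from -0.07 at 195 days to -3.37 at birth, with no animal of one age overlapping the other, and its mean was between -3.97 and -3.19 at the later ages. PLN was well above background in only 12 of 18 fetal channels and lay near background at 60 days, which limits the zero of this ratio.

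**Figure D3:**
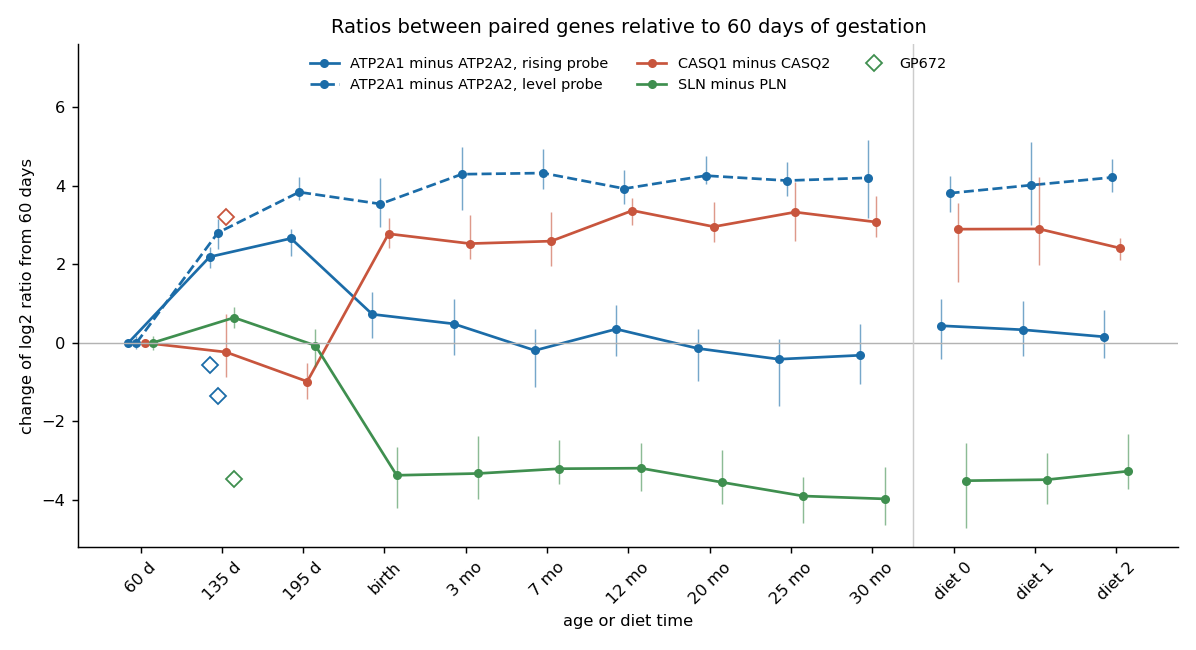
Change of the log2 ratio between paired genes from the mean of 60 days, by age and diet time; points are means over animals without GP672, vertical lines run from the lowest to the highest animal, and open diamonds show GP672. The calsequestrin ratio rises and SLN minus PLN falls between 195 days and birth, while the pump ratio depends on the ATP2A2 probe ("rising" is the printed one).

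None of the 9 genes was called between the crosses. In the fetuses 0% of all genes were called, at birth 0.0068%, after birth 0%, and for the change of the cross difference from fetal to post-natal animals 0%. At an unadjusted p below 0.05, 350, 942, 714 and 245 of the 14711 genes passed in these limma tests. Without GP672 the fetal comparison and the change likewise had 0 calls. The widest intervals were in the fetuses, where that of ATP2A1 ran from -1.72 to 0.53 (Piedmontese minus Wagyu cross, 95% interval), and a difference of 1 in size on the log2 scale lay inside the intervals of ATP2A1, CASQ2, RYR1, PVALB and SLN. Without GP672 the fetal differences ran from -0.21 (CASQ2) to 0.04 (CASQ1).

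After birth the intervals were narrower. ATP2A1 was 0.18 higher in the Piedmontese cross (95% interval 0.06 to 0.30, adjusted p 0.789). With the mean of each age subtracted, the 5 Piedmontese cross animals lay between 0.07 and 0.15 and the 4 Wagyu cross animals between -0.20 and -0.01, without overlap. PLN was 0.36 lower in the Piedmontese cross (-0.57 to -0.16, adjusted p 0.591), with animals at -0.30 to 0.04 against -0.06 to 0.30, which overlap. Within the 6 slides of the post-natal arrays the mean difference was 0.06 to 0.40 for ATP2A1 and -0.56 to -0.15 for PLN, with 1 sign on each of the 6. Animals recur between these slides, so they are not 6 independent results. CASQ2 was at -0.19 (-0.36 to -0.01, adjusted p 0.987). The intervals of SLN (-0.20 to 0.21) and ATP2A2 (-0.38 to 0.05) leave room only for smaller differences, whereas those of PVALB (-0.26 to 0.54) and RYR1 (-0.09 to 0.48) reach past 0.40, as does that of CACNA1S (-0.16 to 0.44). At birth RYR1 was at 15.17, 15.26 and 15.38 in the Piedmontese cross and at 14.33, 14.57 and 15.03 in the Wagyu cross, a difference of 0.62 (0.17 to 1.08, adjusted p 0.761). None of these differences passed the adjustment over all genes. With the deposited ratio of each array, which counts repeated arrays of 1 animal as separate, ATP2A1 (0.21), ATP2A2 (-0.24) and PLN (-0.37) were called after birth, where 1531 of all genes were called.

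**Figure D4:**
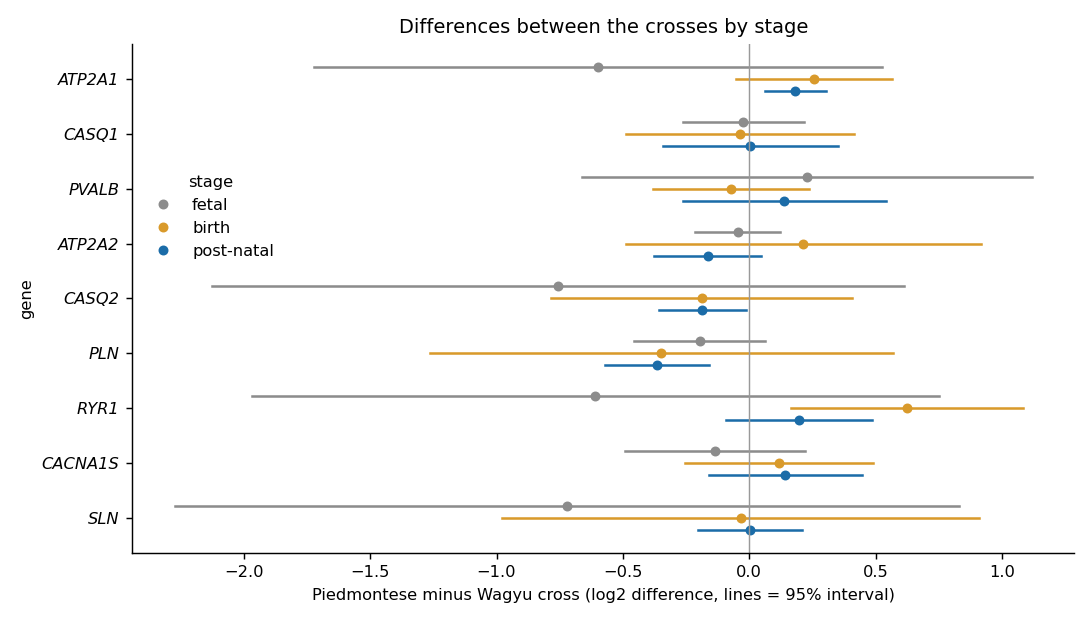
Piedmontese minus Wagyu cross difference of each gene (log2, lines are 95% intervals from limma) in fetal animals with GP672, at birth and after birth. Most lines cross 0, the fetal ones are the widest for ATP2A1, CASQ2, RYR1, PVALB and SLN, and those of ATP2A1, PLN and CASQ2 after birth and of RYR1 at birth do not cross it before adjustment.

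In the diet experiment, 2 of 9 genes were called at time 1 (restricted minus growth), where 14% of all genes were called. At time 0 there were 0 calls among the genes and 1.02% among all genes, and at time 2, with 2 animals a diet, 0 and 0%, with 815 genes at an unadjusted limma p below 0.05. ATP2A1 at time 1 was at 16.35, 16.53 and 16.57 in the 3 restricted animals and at 17.37, 17.45, 18.08 and 18.22 in the 4 growth animals. The groups did not overlap, and the difference was -1.30 ± 0.23 (95% interval -1.83 to -0.77, adjusted p 0.0140). Without RL27 it was -1.23 with an adjusted p of 0.0534. CASQ2 was at 7.38, 7.48 and 7.87 in the restricted animals and at 8.64, 9.09, 9.14 and 9.72 in the growth animals, a difference of -1.57 ± 0.25 (-2.15 to -0.99, adjusted p 0.0109). So a fast pump and a cardiac and slow calsequestrin were both lower on restriction, and the calsequestrin ratio, relative to 60 days, was 3.38 to 4.22 in the restricted and 1.97 to 2.76 in the growth animals. At time 0 the same ratio was 3.01 to 3.54 and 1.53 to 3.05, and the 2 groups overlapped.

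ATP2A2 (-0.68, 95% interval -1.41 to 0.04), SLN (-0.73, -1.52 to 0.06), CACNA1S (-0.65, -1.39 to 0.09) and PLN (-0.86, -1.90 to 0.18) were not called at time 1, and their intervals allow falls larger than 1. CASQ1 (0.06, -0.36 to 0.47) and PVALB (0.12, -0.34 to 0.58) had the narrowest intervals, and that of RYR1 (-0.35) ran from -1.07 to 0.38.

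Cell type markers moved with these differences at time 1. The fast fibre sum was 18.79 to 19.35 in restricted and 20.03 to 21.04 in growth animals, the slow fibre sum 18.40 to 19.12 and 19.45 to 20.13, and the fibroblast sum 12.04 to 12.75 and 15.06 to 16.99. Of the fast fibre markers 4 of 6 were called lower on restriction, of the slow fibre markers 3 of 7 and of the fibroblast markers 5 of 5. Of all genes 6.92% were called lower. The skeletal muscle sum was 18.10 to 18.76 and 18.78 to 19.66, and it had not overlapped at time 0 either (18.11 to 18.61 and 18.67 to 18.96). The smooth muscle and vessel wall sum was 14.11 to 14.51 and 14.68 to 15.37 at time 1. The endothelium sum was 12.51 to 12.71 and 12.99 to 13.60, and the blood and immune sum 11.35 to 11.96 and 12.16 to 12.82. At time 0 the smooth muscle, endothelium and nerve sums had not overlapped either. The adipocyte sum was 9.73 to 10.93 and 9.98 to 12.88 at time 1. The nerve, heart and embryonic or fetal muscle sums also overlapped at time 1. Their part in the result was not tested.

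Changes within animals were compared from time 0 to time 1, a difference of differences in which the slide cancels. Of the 9 genes, 2 were called, against 8.5% of all genes. ATP2A1 moved by 0.22, 0.34, 0.72 and 0.92 in the 4 growth animals and by -0.58, -0.66 and -0.67 in the 3 restricted animals, a difference of -1.19 ± 0.19 (adjusted p 0.0155). SLN moved by 0.53, 0.61, 0.74 and 1.37 in the growth animals and by -0.25, -0.47 and -1.31 in the restricted animals, a difference of -1.49 ± 0.30 (adjusted p 0.0291). For each gene the change thus had 1 sign in every growth animal and the other sign in every restricted animal. Each diet time lies on its own slide, so slide and time cannot be told apart within a diet. Only the difference between the diets is free of the slide, and the same holds from time 1 to time 2. Neither call held under all settings: with quantile normalisation the difference of ATP2A1 was -0.63 (adjusted p 0.0733), and with median centring ATP2A1 was at -0.66 (adjusted p 0.292) and SLN had an adjusted p of 0.0943. Leaving out RL27 took ATP2A1 to -1.17 (adjusted p 0.0517), and leaving out RG166, RG208, RG604, RL27 or RL671 took SLN to between -1.59 and -1.17 (adjusted p 0.0529 to 0.0747). CASQ2 had a difference of -1.13 (adjusted p 0.101), and of -1.50 (adjusted p 0.0259) without RG604. From time 1 to time 2, ATP2A1 moved by 0.77 and 0.89 in the 2 restricted animals measured at both times and by -0.90 and -0.91 in the 2 growth animals. At time 2 ATP2A1 lay at 17.12 to 17.46 in restricted and 17.17 to 17.33 in growth animals and overlapped. SLN at time 2 was at 17.00 and 17.11 in restricted and at 16.49 and 16.67 in growth animals, a difference of 0.47 (95% interval 0.12 to 0.83, adjusted p 0.821), and at time 0 the difference was 0.58 (0.12 to 1.04, adjusted p 0.216).

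**Figure D5:**
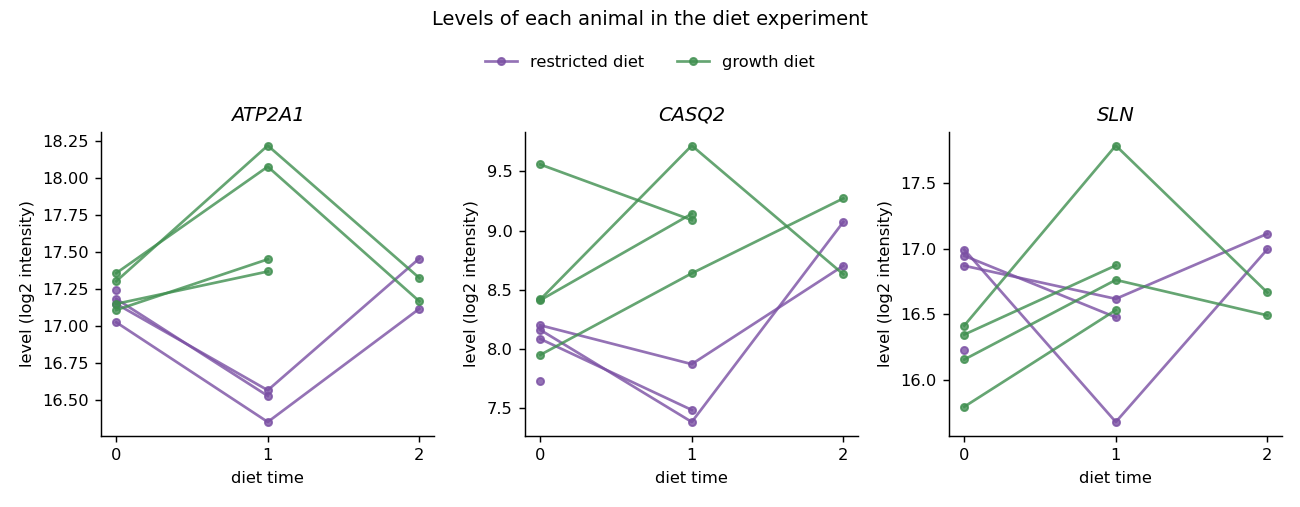
Level (log2 intensity) of ATP2A1, CASQ2 and SLN in each animal of the diet experiment, with lines joining the samples of 1 animal and unjoined points for an animal measured at time 0 only. ATP2A1 of the 3 restricted animals lies at 16.35 to 16.57 at time 1, below all 4 growth animals at 17.37 to 18.22, and ATP2A1 of the diets overlaps at times 0 and 2.

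Other genes of calcium handling were taken from 4 lists: excitation-contraction coupling and the triad (19 of 25 listed genes tested), other pumps, exchangers and channels (19 of 25), calcium binding and buffering (14 of 18) and calcium signalling (27 of 30). From 135 to 195 days, where 11% of all genes rose and 12.3% fell, 14 of the 19 coupling genes rose and 1 fell. The median of these coupling genes was 0.76, against 0.00 over all genes. The largest rises among them were in JPH2, which tethers the reticulum to the surface membrane (2.15), and TRDN, which links calsequestrin to the release channel (1.98). Of the 14 binding genes S100A1, a calcium sensor that binds RYR1, rose (2.44) and 8 fell over the same interval, the largest falls being those of HSPA5 (-0.98) and CALU (-0.98), proteins of the endoplasmic reticulum, and S100A10 (-0.92). Without GP672 JPH2 was at 1.67, TRDN at 1.12, S100A1 at 2.37, HSPA5 at -0.88 and CALU at -0.98, all called, and S100A10 was at -0.74 (adjusted p 0.0849). The coupling genes then had 10 rises and 1 fall and the binding genes 1 rise and 6 falls, against 10.7% and 11.9% of all genes. From 60 to 135 days the coupling genes then had 12 rises, against 4 with GP672. Over all 4 lists, 25 of 79 genes then rose and 1 fell from 60 to 135 days, against 8 and 2 with GP672. Of all genes 9.59% then rose and 9.39% fell, against 7.57% and 8.01% with GP672.

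Between fetal and post-natal animals, 10 of 19 coupling genes were higher and 4 lower, and 4 of 14 binding genes were higher and 10 lower, where 38.8% of all genes were higher and 36% lower. Without GP672 these counts were the same, against 39.4% and 36.5% of all genes. The largest rises over the lists were in S100A1 (3.44), JPH1 (2.77) and CAPN3, a muscle calpain (2.55), and the largest falls in RCN1, a reticulum calcium-binding protein (-2.41), ATP2B4, a pump of the surface membrane (-1.99), and CALU (-1.79). Without GP672 S100A1 was at 3.33, JPH1 at 2.65, CAPN3 at 2.36, RCN1 at -2.37, ATP2B4 at -2.07 and CALU at -1.75. JPH1 rose by 2.03 and ATP2B4 fell by 2.45 from 195 days to birth. Over all 4 lists 27 of 79 genes were then higher and 29 lower (29 and 32 without GP672), where 35.1% of all genes were higher and 30.7% lower. No gene of the 4 lists was called between the crosses at any stage or at diet times 0 and 2. At diet time 1, where 7.09% of all genes were higher and 6.92% lower in restricted animals, 3 of 79 were higher and 10 lower. The largest rise among them was that of HRC, a calcium-binding protein of the reticulum (0.86). The largest falls were those of ATP2B2 (-1.79), BIN1, which shapes the transverse tubules (-1.36), and PPP3CB, a calcineurin subunit (-1.09). In the change from time 0 to 1, HRC was at 0.69, ATP2B2 at -2.01, BIN1 at -1.41 and PPP3CA at -1.28.

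The genes with the most similar course were ranked by Pearson's r over the 26 condition means. These values describe the arrays, the conditions share animals and slides, and GP672 is part of 1 of the means. For ATP2A1 the closest were CKM, muscle creatine kinase (0.988), and MYOM2, an M-band protein (0.983), and for RYR1 DUSP13 (0.986) and CKM (0.986). ATP2A2, as the mean of its probes, ran with the mitochondrial genes GOT2 (0.986), APOO (0.979) and PDHA1 (0.974), and r was not computed for either probe alone. CASQ2 ran with MYH8, the perinatal myosin heavy chain (0.955), and FMNL3 (0.952). MYH8 was well above background in only 24 of 96 channels, the minimum of the filter, which limits its r. CACNA1S ran with SYPL2, a triad protein (0.965), FITM1 (0.953) and PHKG1 (0.944), PLN with LDHD (0.990) and HINT3 (0.989), and SLN with SH3BGR (0.945). CASQ1 had RHOBTB1 (0.928) and PVALB had ABCB9 (0.772). Within the 12 post-natal conditions r was 0.936 for CACNA1S and SYPL2, 0.863 with FITM1 and 0.843 with PHKG1. It was 0.888 for CASQ1 and RHOBTB1, 0.887 for ATP2A2 and GOT2, 0.797 with APOO and 0.569 with PDHA1, 0.890 for PLN and HINT3 and 0.692 with LDHD. Lower values were those of ATP2A1 with CKM (0.298) and MYOM2 (0.422), RYR1 with DUSP13 (0.139), CASQ2 with MYH8 (0.427) and FMNL3 (0.270), SLN with SH3BGR (0.566) and PVALB with ABCB9 (0.544), while RYR1 with CKM was at 0.653. For the pairs with low values the likeness thus lay mostly between fetal and later samples.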

How the data were processed

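Total RNA from longissimus muscle was compared on 48 Agilent bovine arrays of 2 colours with swapped dyes. The authors deposited the spot and background intensity of each channel and, per array, the log10 ratio of Cy5 over Cy3, both from Agilent Feature Extraction 9.5.1 as the labels name it. From the intensities, background was corrected (normexp, offset 50), dyes were normalised within arrays by loess and intensities between arrays by Aquantile (limma 3.58.1 in R 4.3.3). Control and outlier spots were left out, spots of a probe and probes of a gene were averaged (959 genes had several probes), and probes well above background in at least 24 of 96 channels were kept (15822 of 21475 probes, 14711 genes). The mean dye effect of each gene was removed and arrays of 1 animal at 1 time were averaged. Between 49.9% and 76.4% of spots per channel were well above background, and the number of animals limits the precision.

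Groups came from the labels. Age steps were tested with limma and the animal as a random block (correlation 0.285), and crosses, diets and fetal against post-natal animals on 1 value per animal. The pipeline was tested on simulated data. Alternatives changed the background correction, normalisation, filter, choice of probe, dye effect, animal block, slide, animal codes and unit, and left out each animal. Leaving out GP672 and reading each ATP2A2 probe alone were chosen after seeing the data. The genes and lists were chosen with earlier results of these data known. All 9 genes are named, of the other calcium genes at most the 3 largest called rises and falls per comparison, and of the genes with a similar course at most 3 per gene. Cell type lists served to describe samples. Relative to fetal animals, post-natal animals had called genes higher and lower of 5 and 0 of 6 (skeletal muscle), 3 and 0 of 6 (fast fibre), 4 and 0 of 7 (slow fibre), 0 and 4 of 4 (embryonic or fetal muscle), 0 and 5 of 5 (fibroblast), 1 and 0 of 4 (adipocyte) and 3 and 3 of 7 (blood and immune). No reference sequence beyond the probes was used here.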

Additional observations from a re-analysis of the deposited data

Results flagged for a closer look

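At 135 days GP672 lay far from the other 4 animals of its age for 5 of the 9 genes: ATP2A1 (12.62), CASQ2 (7.59), RYR1 (8.45) and SLN (11.86) were the lowest values and PVALB (10.72) the highest. Elsewhere 1 animal lay far from the rest of its group for ATP2A1 (GW245 at 25 months, 16.46), CASQ1 (RL24 at diet time 0, 7.81), CASQ2 (GP130 at 7 months, 8.73), RYR1 (RG208 at diet time 0, 14.49), SLN (RL322 at diet time 0, 16.23) and PLN (GP130 at 30 months, 11.25). Over the groups of 4 to 10 animals examined, 11, or 10.2% of them, passed Dixon's critical value, 5 of these through GP672. Chance alone passes about 1 in 20. The groups share animals and are not independent, so the share does not show that the other animals are outliers beyond chance. The change from diet time 0 to 1 differed between the diets for ATP2A1 (-1.19) and SLN (-1.49), restricted minus growth on the log2 scale, by the limma test of the difference itself.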

How the results depend on the processing

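No paired analysis was possible because, by replicate number, the samples share only the number of an array, which pairs no animals between groups. Other pairing was used: it came from the animals, as the random block of the age steps and the changes within animals of the diet experiment, and from the arrays, as the deposited ratio of the 2 channels. With median centring, the number of the 9 genes called was 0 from 60 to 135 days, 1 from birth to 3 months, 0 from 3 to 20 months, 4 from 25 to 30 months and 0 for the diet change. At 25 to 30 months ATP2A2 (0.79), RYR1 (1.05) and PLN (0.95) then turned upward, where the median of all genes was 0.48. That median was 0.20 from 195 days to birth, 0.12 between fetal and post-natal animals and 0.14 for the diet change. The diet change had 1 gene called with quantile normalisation, 1 with the dye effect kept and 0 with the deposited ratio. From 60 to 135 days 1 gene was called with the dye effect kept and 1 with slide as a fixed block, and from 3 to 20 months 0 without the random block. The deposited ratio gave 3 genes between the crosses after birth. Leaving out each animal gave 1 to 4 genes from 60 to 135 days, 1 to 2 from 3 to 20 months, 1 to 2 at diet time 1 and 0 to 2 for the diet change. The change of ATP2A1 minus ATP2A2 from 60 days to post-natal animals was 2.05, with 2.85 under median centring, -0.16 with the brightest probe, A_73_107013, and 4.26 with A_73_106338, by which ATP2A2 also turned to -0.19 between fetal and post-natal animals. That of SLN minus PLN was -3.50, with -4.00 under background subtraction and -2.97 under median centring. The cause of these shifts was not tested.

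Over all genes, median centring called 617 in place of 2293 from 60 to 135 days (31.4% in place of 48.6% higher), 439 in place of 3420 from 135 to 195 days, 5678 in place of 9674 to birth, 1997 in place of 7091 to 3 months (33.1% in place of 48.3% higher), 148 in place of 3963 from 3 to 20 months and 10102 in place of 3080 from 25 to 30 months (73% in place of 55.5% higher). It raised the higher share to 74.4% from 50.6% at diet time 1 and to 78.4% from 49% for the diet change. At diet time 0, 27 (33.3% in place of 51.3% higher), 83 with background subtraction, 69 with quantile normalisation and 0 with the deposited ratio stood in place of 150. The diet change had 826 with the dye effect kept and 333 with the deposited ratio in place of 1250, and 25 to 30 months had 1895 in place of 3080 without the random block. The deposited ratio called 6, 1531 and 236 in place of 0 for the fetal and post-natal crosses and their difference, 4335 in place of 2061 at diet time 1 and 269 in place of 0 at time 2. PLN and CASQ1 were near background at 60 days, which limits their earliest changes. CASQ1 was not well above background in some later channels either, which limits its later changes.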
